A study of Homo sapiens with 2 samples.

Results

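The regions described here are the widest LSD2 peaks of HepG2 cells, chosen by their measured width: intervals of 1000 bp or more in the deposited list of places where LSD2 chromatin immunoprecipitation (ChIP) exceeded input. They numbered 371 of 370863 distinct intervals, or 0.100%, identical lines being counted as 1 interval. The study comprised 1 LSD2 ChIP library and 1 input library, both from unmodified HepG2 cells, an established human line from a liver tumour, cultured at 25 mM glucose with 10% serum. Chromatin was precipitated with a rabbit polyclonal serum against residues 26 to 822 of LSD2, and the input was chromatin DNA that was not precipitated. Each condition had 1 library, so no difference could be set against replicate error and no test was made. The list holds positions without a height or p-value, and read depth is unknown here. The ChIP and input reads carry different run dates in the file header, so condition and run cannot be told apart.

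LSD2 is the product of KDM1B, a demethylase that uses flavin as cofactor and removes methyl groups from lysine 4 of histone H3. Unlike its relative LSD1, it has been described in the bodies of actively transcribed genes, together with elongating RNA polymerase II and with enzymes that methylate histone H3. Hepatocytes and lines derived from them devote much of their transcription to secreted proteins. Peak width in such a list is the length over which reads passed the cutoff of the peak caller, so read depth and the number of copies of a region can bear on it as well as LSD2.

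Width chose these peaks and is given as a description. Their median width was 1171 bp (quartiles 1067 and 1360 bp), and the widest measured 6959 bp. In the first 10 bp from the limit upward there were 20 peaks, and in the last 10 bp below it 29, so no break in the widths marks the limit. The 371 peaks covered 498 kb. Peaks of 400 to under 1000 bp, the nearest class below, numbered 28879.

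The wide peaks fell into 2 classes by position. A peak-free stretch is a gap of more than 1 Mb between successive peaks, and there were 24 of these, most of them about 3 Mb long and 1 on most chromosomes. Of the 371 wide peaks, 47 lay within 1 Mb of such a stretch, a share of 12.7% (95% Wilson interval 9.66% to 16.4%), and 324 lay elsewhere, called chromosome arms below. Among the 370492 other peaks the share beside a stretch was 1.05%. Read the other way, 1.20% of the 3922 peaks beside stretches and 0.0883% of the 366941 peaks in arms reached 1000 bp. The Wilson intervals cover counting error only and assume independence, although adjacent peaks may share a source.

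The share beside stretches rose with width over the whole list. It was 0.922% of peaks under 200 bp, 1.58% of those from 400 to under 700 bp and 4.35% of those from 700 to under 1000 bp. Among wide peaks it was 6.28% from 1000 to under 1200 bp (13 of 207), 11.9% from 1200 to under 1500 bp (12 of 101) and 20.5% from 1500 to under 2000 bp (9 of 44). Of the 19 peaks of 2000 bp or more, 13 lay beside a stretch, or 68.4% (95% Wilson interval 46.0% to 84.6%). The very widest peaks were thus mostly beside stretches, whereas peaks a little over 1000 bp were mostly in arms.

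**Figure D1:**
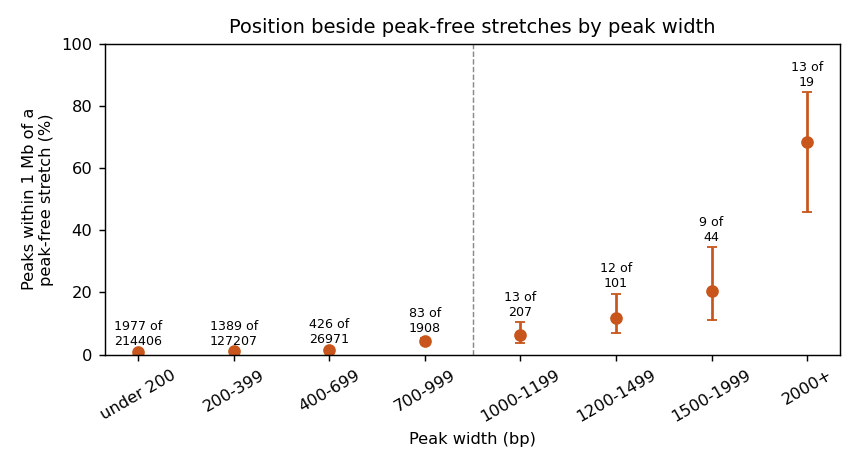
Share of peaks within 1 Mb of a peak-free stretch over 1 Mb (vertical axis, %) in classes of peak width (horizontal axis, bp). Points are shares with 95% Wilson intervals, labels give the counts, and the dashed line marks 1000 bp; the share goes from 0.922% under 200 bp to 68.4% at 2000 bp or more.

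The 47 peaks beside stretches bordered 18 of the 24 stretches. Their median width was 1386 bp (quartiles 1162 and 2385 bp), against 1160 bp (1061 and 1309 bp) in arms. They sat close to the stretch, at a median distance of 121 kb, with 23 within 100 kb and 12 within 10 kb. In 4 cases the wide peak was the first one after the stretch, on chromosomes 8 (2464 bp from 46844726), 10 (2381 bp from 42386344), 16 (1285 bp from 46416608) and 18 (1656 bp from 18510898). Positions are on hg19 and count from 1.

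The 10 widest of this class were 6959 bp and 4521 bp on chromosome Y (from 13479946 and 13465739), 6658 bp on chromosome 1 (from 121351637), 5138 bp on chromosome 8 (from 43092462) and 4880 bp on chromosome 16 (from 46425376). They continued with 3797 bp on chromosome Y (from 58982735), 3189 bp on chromosome 16 (from 46422172), 2639 bp on chromosome 21 (from 10699040) and 2464 bp on each of chromosomes 8 (from 46844726) and 12 (from 34846001). The distance from these peaks to the stretch ran from 734 kb on chromosome 8 to under 1 kb. Chromosomes 20 and Y had the most peaks of this class, with 7 each, followed by chromosome 7 with 6. All 7 wide peaks of chromosome Y were beside stretches. On chromosomes 16 and Y several touched almost end to end, the 3189 and 4880 bp peaks being 15 bp apart. Within this class 2 peaks lay in known genes, at 873 and 946 kb from the stretch of chromosome 20. They were a 1386 bp peak in BCL2L1, which encodes the survival protein BCL-XL, and a 1324 bp peak in TPX2, a spindle assembly factor.

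In chromosome arms the wide peaks were concentrated on a few chromosomes. Chromosomes 2, 6, 17, 10, 16, 14 and 20 held 57, 40, 33, 27, 27, 27 and 23 of them, together 72.2% of the 324, whereas the same 7 chromosomes held 35.1% of all arm peaks. These 7 were picked for holding the most wide peaks, so their larger share of wide peaks follows in part from that choice. Relative to the peaks of each chromosome the order was different. Chromosome 17 had 3.06 wide peaks per 1000 arm peaks (95% Wilson interval 2.18 to 4.29), chromosome 14 had 2.80 (1.93 to 4.08), chromosome 20 had 2.73 (1.82 to 4.09) and chromosome 16 had 2.70 (1.86 to 3.93). The intervals of these 4 overlap. Chromosomes 6, 2 and 10 followed with 1.43, 1.36 and 1.36 per 1000. Chromosomes 13, 15 and X had 1 wide arm peak each (0.0843, 0.102 and 0.104 per 1000), and chromosome 7 had 3 (0.156). Chromosome Y had none among 535 arm peaks, too few to show a low rate, since the interval reaches 7.13 per 1000. The value of chromosome 20 rested on 1 place, and without the 13 wide peaks there it was 1.19 per 1000.

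**Figure D2:**
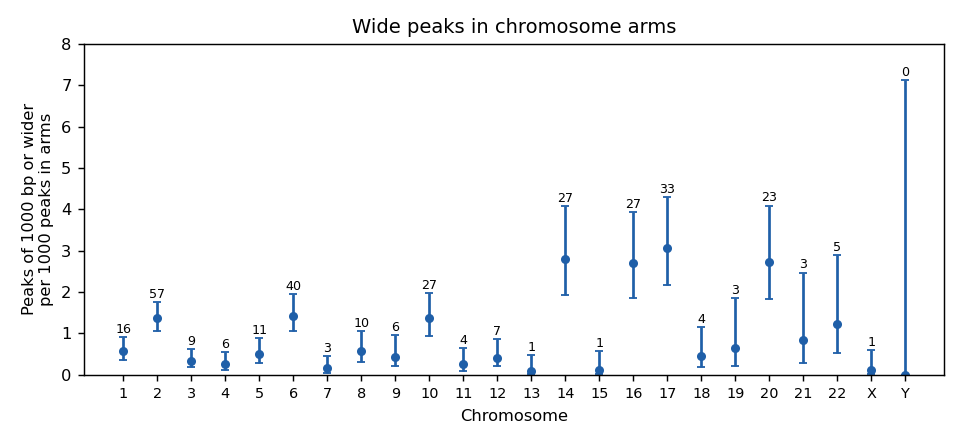
Wide peaks in chromosome arms per 1000 arm peaks (vertical axis) for each chromosome (horizontal axis). Points carry 95% Wilson intervals and the labels give the number of wide peaks; chromosomes 14, 16, 17 and 20 lie between 2.70 and 3.06, while 13, 15 and X lie near 0.1.

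On chromosomes 14, 17, 20 and 6 the wide arm peaks were unevenly spread along the chromosome. The limits of the segments compared were set with peak positions known. On chromosome 14 all 27 lay between 21078109 and 39657244, before the 44 Mb position, at 5.06 per 1000 arm peaks (3.48 to 7.36). None of the 4298 arm peaks after 44 Mb reached 1000 bp, which allows at most 0.893 per 1000. On chromosome 17, 32 of 33 lay after 26 Mb (3.79 per 1000, against 0.428 before). On chromosome 20, 21 of 23 lay after the long stretch (4.80 per 1000, against 0.493 before it). Without the 13 in 1 group the value after the stretch was 1.83 (0.929 to 3.61), and its interval overlaps that of the part before (0.135 to 1.80). Chromosome 6 held 25 before its long stretch (2.54 per 1000) and 15 after it (0.829). The parts before and after the long stretch had overlapping intervals on chromosomes 10 (1.30 and 1.39 per 1000) and 16 (2.09 and 3.08). Peaks of 400 bp or more took a larger share in the same segments of chromosomes 14 (16.0% against 3.19%) and 17 (13.8% against 7.45%), and differed less on chromosomes 20 (11.5% against 9.52%) and 6 (10.5% against 8.82%). DNA copy number was not measured, and its part in these differences was not tested.

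Wide arm peaks had more other peaks around them than arm peaks in general, and those neighbours were wider than usual, though mostly well under 1000 bp. Within 50 kb on each side of a wide arm peak the median number of other peaks was 28.5 (quartiles 21.0 and 39.0, range 5 to 74). For peaks of 400 to under 1000 bp in arms it was 19.0, and for all peaks in arms 15.0. The nearest other peak was a median of 512 bp away, compared with 1403 bp for peaks of 400 to under 1000 bp and 2020 bp for all arm peaks. A neighbour lay within 200 bp of 92 wide arm peaks (28.4%), against 10.4% of peaks of 400 to under 1000 bp in arms and 5.88% of all arm peaks. None of the 324 stood over 20 kb from the next peak, as did 0.532% of peaks of 400 to under 1000 bp in arms and 1.36% of all arm peaks. With a share that low in the nearest class below, finding none among 324 does not set wide peaks apart from it.

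The surroundings changed gradually with distance. From 5 to 10 kb away from a wide arm peak there were 3.74 other peaks per 10 kb with a median width of 344 bp, and from 100 to 250 kb away there were 1.85 with a median of 206 bp. The values for all arm peaks were nearly flat, at 1.66 and 1.46 per 10 kb and 185 and 176 bp. The 184 wide arm peaks with no other within 100 kb showed a smaller excess, with 3.29 neighbours per 10 kb at 5 to 10 kb. Peaks beside stretches differed from this pattern. Their neighbours from 5 to 10 kb away were few (1.62 per 10 kb) but wider, at a median of 606 bp, and at 50 to 100 kb the density was 0.587 per 10 kb. Density there counts the bases of the peak-free stretch itself.

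**Figure D3:**
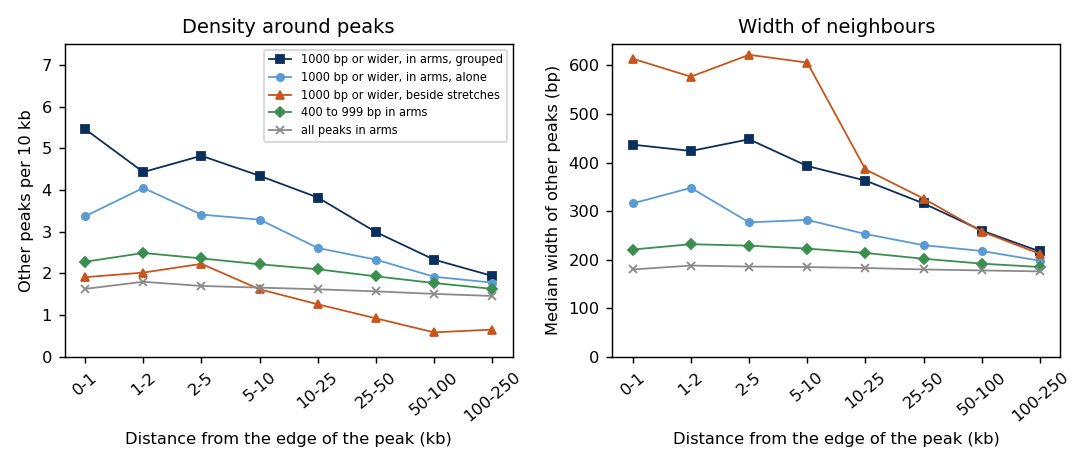
Other peaks per 10 kb (left, vertical axis) and their median width in bp (right, vertical axis) by distance in kb from the edge of a peak (horizontal axes). Lines are wide peaks in arms with another within 100 kb (grouped) or without (alone), wide peaks beside stretches, peaks of 400 to under 1000 bp in arms, and all arm peaks (a regular sample of 36695); wide peaks in arms lie above all arm peaks at each distance in both panels.

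Wide arm peaks recurred in the same places. Joining those with at most 100 kb between them gave 47 groups of 2 or more, which held 140 of the 324 (43.2%, 95% Wilson interval 37.9% to 48.7%). Of these groups 31 were pairs and 16 had 3 or more members, 78 in all. The same share was not computed for other peaks. Over arms and stretches together, 12 pairs of successive wide peaks were under 200 bp apart. Whether the caller had divided a single region there was not tested. To name the places, genes were set on hg19 from general knowledge of that assembly, since an hg19 annotation was not used here. These places were not checked on hg19 itself, and 146 of the 160 genes that hold wide peaks had a recalled length within 10% of that in RefSeq. A peak is in a gene when its midpoint lies in the gene body. In this way 222 of the 324 were placed in 160 genes. The other 102 are not assigned to a gene, which does not make them intergenic. Of the 160 genes, 129 held 1 wide peak, 23 held 2 and 8 held 3 or more.

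RBM39, which encodes a splicing factor and transcriptional coactivator, held the most. Its 13 wide peaks ran from 34292971 to 34328499 on chromosome 20, nearly the whole length of the gene. Their widths were 1137, 1427, 1597, 2624, 1279, 1024, 1270, 1420, 1416, 1775, 1366, 1063 and 1851 bp in order of position. Peaks covered 74.3% of these 35.5 kb, and wide peaks alone covered 54.2%. The 3rd, 4th and 5th of them followed each other almost without a break, the 2624 bp peak starting 20 bp after the 1597 bp one. Outside this span the widths fell at once, as the maps of 6 groups show, with no peak over 416 bp in the 20 kb on each side.

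FN1, the fibronectin gene, held 7 on chromosome 2 between 216235027 and 216280246, with widths of 1002, 1084, 1079, 1042, 1283, 1552 and 1619 bp. The neighbouring ATIC, which encodes the enzyme of the last steps of purine synthesis, held 1 of 1194 bp. The arrangement differed from that in RBM39: wide peaks were scattered among narrower ones and covered 11.5% of the span of FN1 and ATIC, where all peaks together covered 40.9%.

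CNOT1, the scaffold of the CCR4-NOT deadenylase that shortens messenger RNA tails, held 5 wide peaks of 1052 to 1461 bp over 100 kb of chromosome 16. APOB, the structural protein of very low density lipoprotein, held 4 over 32.9 kb of chromosome 2, of 1420, 1349, 1146 and 1333 bp. LRPPRC, which stabilises mitochondrial messenger RNA, also held 4, of 1344, 1024, 1121 and 1145 bp. These LRPPRC peaks were spread over 87.0 kb that held 66 narrower peaks. SEC23A and SEC24A, which encode coat proteins of vesicles leaving the endoplasmic reticulum, held 3 each, with the widest at 1765 and 1123 bp.

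**Figure D4:**
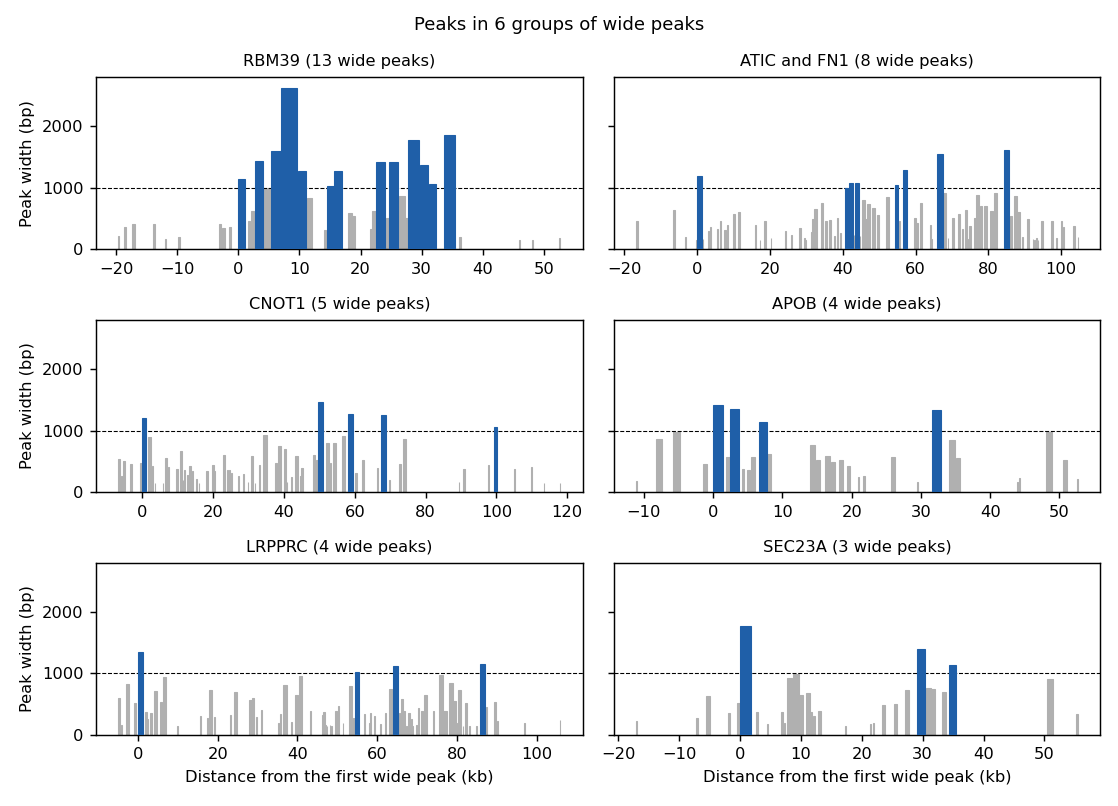
Peaks in 6 groups of wide arm peaks, drawn to scale by distance in kb from the start of the first wide peak (horizontal axes) and by width in bp (vertical axes). Wide peaks are blue, other peaks grey and the dashed line marks 1000 bp. The 13 wide peaks of RBM39 cover 54.2% of their span. Wide peaks cover 11.5% of the span of FN1 and ATIC, 6.22% in CNOT1 and 5.33% in LRPPRC, where many narrower peaks stand among them.

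Further groups of 3 or 4 covered more than 1 gene or none that was placed. On chromosome 16 a group of 4 joined SF3B3 (2 peaks, the wider 1827 bp), a subunit of the U2 spliceosome particle, with COG4, a Golgi tethering factor, and ST3GAL2, a sialyltransferase. On chromosome 10 a peak of 1081 bp in GPAM, the enzyme of the initial step of triglyceride synthesis, was followed 81.1 kb later by 3 peaks that were not placed. On chromosome 17 ZNF207, a spindle checkpoint factor, held peaks of 2455 and 1171 bp and PSMD11, a proteasome subunit, held 1 of 1218 bp. Also on chromosome 17 the RNA helicase gene DDX42 held 2, the wider 1612 bp, next to CCDC47, which encodes a protein of the endoplasmic reticulum, with 1 of 1233 bp.

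Groups without a placed gene were on chromosome 8 from 129565229 to 129666150 (5 peaks of 1017 to 1598 bp among 54), on chromosome 6 from 1228691 to 1269069 (3 peaks among 9) and from 26537509 to 26572571 (3 among 10), and on chromosome 9 from 68419630 to 68439750 (3 among 5). The last of these lies 2940 kb from the stretch of chromosome 9, and its peaks of 3060, 1467 and 1151 bp had 13, 15 and 13 other peaks within 50 kb, nearer the median of 11.0 beside stretches than that of 28.5 in arms. The rule on distance nevertheless counts it with the arms. This holds also for the widest arm peak, of 4035 bp on chromosome 16 from 33971962, at 1303 kb from a stretch. In all, 36 arm peaks were 1 to 5 Mb from a stretch, and 5 were within 1 Mb of the outermost peak of their chromosome. The 36 include the 13 of RBM39, at 4872 to 4905 kb, which had 36 to 43 other peaks within 50 kb.

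After these 2 peaks, the 10 widest in arms were 2624 bp in RBM39, 2455 bp in ZNF207, 2161 bp on chromosome 1 from 149033597, which was not placed in a gene, and 2019 bp in HERPUD1, a gene of the unfolded protein response. They were followed by 1974 bp in VPS54, a tethering factor of retrograde transport to the Golgi, 1943 bp in PNN, a splicing-associated nuclear protein, 1851 bp in RBM39 and 1847 bp on chromosome 10 from 135499825. Only 6 arm peaks reached 2000 bp. Near the lower limit were peaks of exactly 1000 bp in PAPOLG, a poly(A) polymerase, and in ZDHHC14, a palmitoyltransferase.

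Some genes with 1 or 2 wide peaks are described here by role, picked after their peaks were seen, so they show no tendency of a class. In RNA processing, subunits or partners of the spliceosome were SF3B1 (1156 bp), SNRNP200 (1051 bp), PRPF4B (1163 bp), SRRM1 (1171 bp) and LUC7L3 (1057 bp). Of the RNA-binding proteins HNRNPC had 1 of 1173 bp, PCBP2 1 of 1015 bp, KHDRBS1 1 of 1061 bp and EWSR1 1 of 1143 bp. The helicase genes DDX21 and DDX1 held peaks of up to 1299 and 1214 bp. How many genes of each role hold none was not counted.

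In translation, wide peaks lay in EIF3A (1692 bp), EIF3E (1120 bp) and EIF2S2 (2, the wider 1079 bp), which encode initiation factor subunits, and in the tRNA synthetase gene AARS1 (1246 bp). EIF4ENIF1, an inhibitor of cap-dependent initiation, had 1 of 1189 bp. Transcription was represented by SUPT6H (1163 bp), an elongation factor, by the Mediator genes MED1 (2, the wider 1226 bp) and MED23 (1141 bp) and by INTS2 (1213 bp) of the Integrator complex. In the secretory pathway COPA, a coat protein of Golgi vesicles, had 1 of 1069 bp, CLTC, the clathrin heavy chain, had 1 of 1096 bp, and SSR1, a translocon-associated protein, had 2, the wider 1441 bp.

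Among genes of metabolism picked in the same way, TAT, which starts the breakdown of tyrosine, had 1 of 1148 bp, SELENOP, the secreted selenium carrier, had 1 of 1325 bp and UGDH, which makes the substrate of glucuronidation, had 1 of 1053 bp. LPIN1, a phosphatidate phosphatase of triglyceride synthesis, had 1 of 1387 bp and HKDC1, a hexokinase-like enzyme, had 1 of 1089 bp. Near BAAT, which conjugates bile acids, and near FOXA1, a pioneer factor of liver development, wide peaks of 1377 and 1694 bp lay outside the gene body but within 10 kb.

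Across the 160 genes the density was 0.639 to 9.49 peaks per 10 kb, with a median of 4.01, and these values include the wide peaks themselves. AFP, the alpha-fetoprotein gene, stood at the upper end and DNMT3A, a DNA methyltransferase, at the lower. In DNMT3A a wide peak of 1031 bp was 1 of 7 peaks with a median width of 149 bp. CMYA5, a gene of striated muscle, likewise held 1 of 1023 bp among 11 peaks (0.996 per 10 kb). A wide peak was thus not always part of a dense gene. Arm peaks placed in a gene had a median of 33.0 other peaks within 50 kb and those not placed had 21.0.

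Gene lists also take in genes without a wide peak. Over 7 lists with 79 genes, 12 genes held 25 wide arm peaks. Counts per list are read beside the rate over all arm peaks, 0.883 wide peaks per 1000. These lists were chosen with earlier results of these data known, so they are no independent evidence. In them the share of peaks of 400 bp or more is given too, beside 7.82% over all arm peaks.

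Of 20 genes for secreted liver proteins 3 held a wide peak, namely FN1 (7), APOB (4) and AFP (1, of 1141 bp). The list had 54.1 wide peaks per 1000 peaks, and 7.19 without FN1 and APOB. In the whole list 39.2% of 222 peaks were 400 bp or wider, and without FN1 and APOB the share was 20.9% of 139. The albumin gene ALB, a neighbour of AFP, had 7 peaks with the widest at 400 bp, and SERPINA1, the alpha-1-antitrypsin gene, had 3 with the widest at 613 bp. FGB, for the fibrinogen beta chain, had 1 peak of 198 bp. The 20 gene bodies measured from 7 kb (TTR) to 76 kb (FN1).

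Among 13 genes of nuclear transport 4 held a wide peak. They were CSE1L (2, the wider 1357 bp), KPNB1 (1308 bp), XPO1 (1068 bp) and TNPO1 (1037 bp), which encode importins and exportins. IPO7 and IPO5 had many peaks (50 and 35) but none over 908 and 874 bp. Of 11 genes for translation, RNA surveillance and chaperones, LRPPRC, EIF3A and SMG1, a kinase of nonsense-mediated decay, held 4, 1 and 1. The isoleucyl-tRNA synthetase gene IARS1 had 61 peaks, of which the widest was 937 bp. These 2 lists had 12.1 and 17.9 wide peaks per 1000, and 24.6% and 31.5% of their peaks were 400 bp or wider.

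The list of 13 lipid genes, which also included CPS1 of the urea cycle, had 1 wide peak among 300 peaks (3.33 per 1000), in GPAM. Of the 300 peaks, 21.7% were 400 bp or wider. Just short of the limit, ACSL3, a fatty acid activating enzyme, reached 969 bp and ACACA, which makes malonyl-CoA, reached 930 bp. FASN, the fatty acid synthase gene, had no peak of any width. Of 9 genes for cell surface and matrix proteins, with 544 peaks (1.84 wide peaks per 1000), GPC3, a glypican that is abundant in liver tumours, held a wide peak, of 1500 bp, which was also the only wide arm peak of chromosome X. LAMB1, for a laminin chain, reached 947 bp. In the list of cell surface and matrix genes 12.1% of peaks were 400 bp or wider.

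Long genes of muscle and nerve had the lowest share of peaks of 400 bp or more among the lists. The 8 genes, among them TTN, NEB, DMD, CSMD1, RBFOX1, CNTNAP2 and PCDH15, spanned 10.8 Mb, far more than any other list, and held 1184 peaks. None reached 1000 bp, the widest being 646 bp in RBFOX1, and 4.22% were 400 bp or wider. Taking 3 counts as the upper limit for a count of 0, which is not a Wilson interval, 1184 peaks allow up to 2.53 per 1000. A difference from the rate of all arm peaks, 0.883 per 1000, was therefore not detectable. The 5 genes of the LSD family and its partners had 72 peaks in all, the widest of 831 bp in KDM1B itself. Of these peaks 16.7% were 400 bp or wider. With 72 peaks, a count of 0 allows up to 41.7 wide peaks per 1000 by the same limit and says nothing about a difference. The input serves as the control within each call, and no list of peaks from input alone was analysed here.

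A further list, the genes of the COPII coat that carries cargo from the endoplasmic reticulum, was drawn up after the wide peaks had been seen. Of its 11 genes, SEC23A (3), SEC24A (3), SEC23B (2), SEC24C (1) and SEC31A (1) held wide peaks. These were 10 among 245 peaks, or 40.8 per 1000, against 0.883 over all arm peaks. Because the list was drawn up with these peaks in view, the rate shows no tendency of the class. SEC24D reached 969 bp, SAR1A 741 bp and SEC24B 549 bp, while SEC31B, SAR1B and SEC13 had none over 391 bp.

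**Figure D5:**
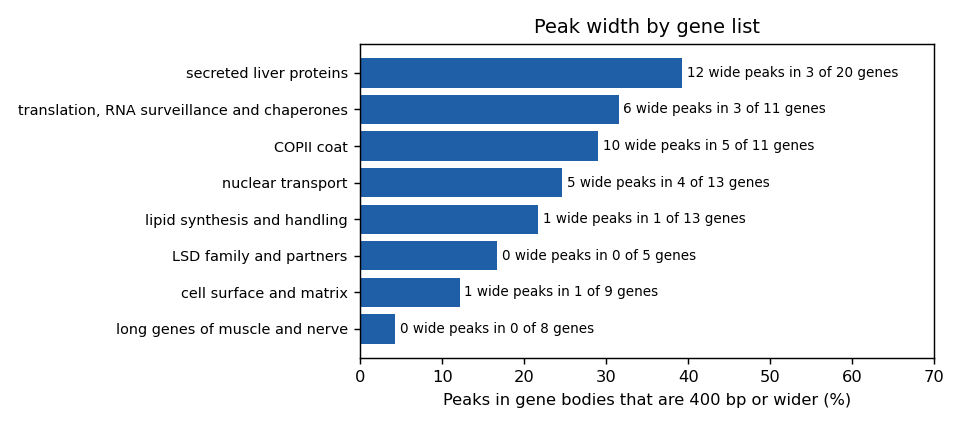
Share of peaks in gene bodies that are 400 bp or wider (horizontal axis, %) for 8 gene lists (vertical axis). Labels give the number of wide peaks and of genes that hold them; the share runs from 4.22% in long genes of muscle and nerve to 39.2% in secreted liver proteins, and the COPII list was drawn up after the wide peaks had been seen.

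Some wide arm peaks were listed repeatedly in the deposited file. Of the 324, 62 (19.1%, 95% Wilson interval 15.2% to 23.8%) stood on more than 1 line, against 12.6% of peaks of 400 to under 1000 bp in arms and 10.2% of all arm peaks. Over arms and stretches together the share was 15.8% from 700 to under 1000 bp, 18.4% from 1000 to under 1200 bp and 18.8% from 1200 to under 1500 bp. It was 11.4% from 1500 to under 2000 bp, a class of 44 peaks. Peaks beside stretches made up 20.5% of that class, so the lower value was not shown for arm peaks alone. Listing 3 or more times was as frequent in wide arm peaks as in those of 400 to under 1000 bp, at 1.54% in both. Beside stretches 2 of 47 were repeated. The peak in EIF4ENIF1 and a peak of 1381 bp within 10 kb of EIF3L, an initiation factor subunit, were listed 4 times each. The peaks in HERPUD1 and in EDRF1, an erythroid regulator, and one of 1362 bp on chromosome 1 from 236714438 were listed 3 times. The sources used here do not say what a repeated line stands for.

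Of the 46 runs of 15 or more peaks each within 2 kb of the next, 15 held a wide arm peak, and 27 wide peaks lay in them. The run in FN1 held 7, that in LRPPRC 3, and those in DDX21, DDX42, CSE1L and SF3B3 held 2 each. These 27 were 8.33% of wide arm peaks, against 1.13% of peaks of 400 to under 1000 bp in arms and 0.245% of all arm peaks. The 13 of RBM39 were in no run.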

How the data were processed

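The authors' deposited file gives 2 values per line, the start and end position of a peak in bases, with no other score. Per the file headers, MACS was run by the authors on trimmed LSD2 reads without duplicates, with input as control. The settings recorded there are 120 bp for reads and fragments, 2700 Mb for the genome, 1e-05 as the p-value limit and 32 as the enrichment factor. BWA and hg19 are named in the submitters' processing notes, and the sources used here give no version of them. Per the labels' protocols, fragments of 100 to 250 bp were selected and amplified for 15 cycles.

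The 414095 lines gave 370863 distinct intervals. Starts were taken to count from 0. Width, stretches, groups, neighbours and runs were computed in Python 3.11.15 with pandas 2.3.3 and numpy 2.4.6, and Wilson intervals with scipy 1.17.1. On simulated intervals, 6 of 6 counts were recovered: wide peaks, those beside a stretch, repeated intervals, runs, peaks in runs and group size. Groups were joined there at 2 kb rather than 100 kb. Neighbour counts and Wilson intervals were not part of that check. The text names the 10 widest peaks of each class, the groups of 3 or more (at most 15) and the listed genes; other genes with a wide peak were picked by role after their values were seen. Members and lists were chosen with earlier results of these data known.

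The bodies of 238 genes were set on hg19 from general knowledge, and genes outside the lists were looked up after the peak positions had been seen. Against the RefSeq table of GRCh38.p14, used for names, order and length only, 238 were on the same chromosome, 216 of 216 neighbouring pairs had the same order and 219 had a length within 10%. The 19 others include GPAM, TAT, ATIC, LPIN1, EIF4ENIF1, RBFOX1, PCDH15 and SAR1A. Sequences of the peaks are not printed, since no hg19 genome was used here. Some results on withheld items are not reported here.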

Additional observations from a re-analysis of the deposited data

How the results depend on the processing

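Intervals of 1000 bp or more numbered 371, and 442 lines described them when every line was counted. Merging intervals up to 100 bp apart gave 586, so the count depends on how the caller divided regions; limits of 900, 1200 and 1500 bp gave 663, 164 and 63. The share beside stretches rose from 12.7% to 20.7% and 34.9% at 1200 and 1500 bp, and was 10.8% to 14.3% under other definitions of the stretch and the distance. The share of arm peaks in groups was 35.4% at 1200 bp, with fewer peaks to join, and 38.3% to 48.1% under the 4 other alternatives. The median density of 28.5 neighbours per 100 kb was 35.0 within 10 kb, 21.6 within 250 kb and 26.0 for peaks outside groups. Peaks listed 3 or more times were 1.35%, against 17.3% listed more than once. Wide arm peaks in runs numbered 1 with gaps up to 1 kb and 81 with gaps up to 3 kb, against 27. Without the RBM39 group chromosome 20 had 1.19 per 1000, against 2.73, and its part after the long stretch had 1.83, against 4.80; leaving out this group, all grouped peaks, or those within 5 Mb of a stretch were alternatives chosen after seeing the data. The other values stayed within their interval or 1.5 times. No paired analysis was possible because ChIP and input contributed a single library apiece. Since depth is unknown, the precision of a width cannot be given.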
